A study of Homo sapiens with 8 samples.

Results

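The genes described here are 38 genes of the NRF2 pathway and of cellular redox control, and they were followed through the sublines of a pair of human esophageal squamous cell carcinoma cell lines, KYSE180 and KYSE30. They were listed by name, and each was represented by the brightest of the probe sets that the array annotation assigns to that gene alone. Of the 38, 36 had such a probe set and all 36 were bright enough to be tested, among 14180 genes tested on the arrays. FTH1, the heavy chain of ferritin, and NR0B1, a nuclear receptor, had no probe set of their own in that annotation and were not analysed here. RNA was measured on 8 Affymetrix arrays, 2 in each of 4 groups called 180D, 180U, 30D and 30U. Both are established lines, and the labels give no genetic change and no added agent for any group. Each line was taken through 4 rounds of transwell selection, in which cells migrate across a porous membrane. Cells that crossed gave the D sublines, described by the labels as the more motile, and cells that stayed behind gave the U sublines. Every subline was grown for 2 passages after harvest before RNA was taken. Each D array has a U partner from the same parental population, and 4 such populations were selected independently. Each line comes from 1 tumour, so the comparison of KYSE180 with KYSE30 is a comparison of these 2 lines.

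NRF2, the product of NFE2L2, is a transcription factor that is degraded in resting cells because KEAP1 binds it and hands it to a ubiquitin ligase. Oxidants and electrophiles modify KEAP1, NRF2 then accumulates, and with small MAF proteins it binds antioxidant response elements near genes for glutathione synthesis, thioredoxin recycling, NADPH supply, iron storage, drug export and detoxification. In squamous cancers of the esophagus the pathway is known for mutations that keep it switched on.

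The arrays resembled each other closely within a line. Across the tested genes, arrays of 1 group correlated with r between 0.997 and 0.998, arrays of 1 line but different groups with 0.992 to 0.995, and arrays of different lines with 0.860 to 0.869. The gap between the 3′ and 5′ probe sets of ACTB, a sign of RNA quality, was 1.92 log2 units on 180D replicate 1 and 1.06 to 1.42 on the other 7 arrays. Of 9 genes listed as markers of squamous epithelium, not all of them particular to it, 6 had a probe set of their own. CDH1, EPCAM, SOX2 and DSG3 lay well above the filter in both lines, whereas the basal keratins KRT5 and KRT14 reached 12.17 to 12.36 and 13.34 to 13.64 in KYSE180 but only 4.48 to 4.84 and 3.45 to 4.27 in KYSE30, near or below the value of 4.46 under which probe sets were filtered out. Of the markers of other cell types, 3 of 7 for fibroblasts, 1 of 4 for immune cells and 2 of 4 for endothelium passed the filter. COL1A1 of fibroblasts ran from 7.19 to 7.99 in KYSE180 and from 6.56 to 7.05 in KYSE30, and PECAM1 of endothelium from 5.61 to 5.80 and from 5.70 to 5.77. PTPRC of leukocytes, COL1A2 and COL3A1 of fibroblasts and KDR of endothelium were below the filter. Of 6 markers of simple epithelium 4 passed, with KRT18 at 11.97 to 12.13 in KYSE180 and 13.58 to 13.70 in KYSE30, and KRT8 at 11.24 to 11.41 and 12.74 to 12.91. The part of these markers in the differences between the lines was not tested. All levels are log2 values, and levels are compared between samples, never between genes.

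The antioxidant response element is the DNA through which NRF2 acts, and 6 promoter windows are shown first because each holds a match to its core. The windows run from 250 bases before a transcription start to 50 bases after it, so they hold the proximal promoter and the first bases of exon 1 (RefSeq, GRCh38.p14). The element's core, TGACNNNGC, was searched on both strands, and its matches are in capitals. GPX2 and KEAP1 are among the genes that were higher in KYSE180, TXNRD1 did not pass the test between the lines, and IDH1, ME1 and PIR are 3 genes that were lower in 30D than in 30U. The windows are chr14:64942696-64942995 for GPX2, chr19:10502722-10503021 for KEAP1, chr2:208255022-208255321 for IDH1, chr6:83431002-83431301 for ME1 and chrX:15493284-15493583 for PIR, all on the minus strand, and chr12:104215529-104215828 on the plus strand for the first of 2 TXNRD1 windows.
GPX2: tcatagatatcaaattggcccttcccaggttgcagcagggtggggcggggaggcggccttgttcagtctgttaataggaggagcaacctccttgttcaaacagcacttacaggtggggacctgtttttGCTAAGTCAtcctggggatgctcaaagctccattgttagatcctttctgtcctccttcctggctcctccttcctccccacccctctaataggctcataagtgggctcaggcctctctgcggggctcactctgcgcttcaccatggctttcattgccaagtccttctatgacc
KEAP1: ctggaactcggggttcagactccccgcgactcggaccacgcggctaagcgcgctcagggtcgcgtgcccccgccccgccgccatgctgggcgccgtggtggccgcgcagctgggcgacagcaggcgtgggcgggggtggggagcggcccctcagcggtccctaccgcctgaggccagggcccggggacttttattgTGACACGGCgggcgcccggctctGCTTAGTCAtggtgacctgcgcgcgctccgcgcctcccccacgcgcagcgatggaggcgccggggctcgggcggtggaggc
TXNRD1: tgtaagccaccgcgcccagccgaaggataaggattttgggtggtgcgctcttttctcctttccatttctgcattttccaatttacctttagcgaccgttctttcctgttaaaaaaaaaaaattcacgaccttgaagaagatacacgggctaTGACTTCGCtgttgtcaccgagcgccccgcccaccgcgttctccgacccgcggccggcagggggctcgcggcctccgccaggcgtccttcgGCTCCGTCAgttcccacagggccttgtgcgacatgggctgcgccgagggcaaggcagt
IDH1: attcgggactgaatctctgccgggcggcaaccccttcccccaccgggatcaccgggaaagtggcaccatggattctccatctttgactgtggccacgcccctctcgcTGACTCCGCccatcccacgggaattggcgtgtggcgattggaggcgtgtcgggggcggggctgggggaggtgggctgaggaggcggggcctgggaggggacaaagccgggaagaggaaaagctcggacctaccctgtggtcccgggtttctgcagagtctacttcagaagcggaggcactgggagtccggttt
ME1: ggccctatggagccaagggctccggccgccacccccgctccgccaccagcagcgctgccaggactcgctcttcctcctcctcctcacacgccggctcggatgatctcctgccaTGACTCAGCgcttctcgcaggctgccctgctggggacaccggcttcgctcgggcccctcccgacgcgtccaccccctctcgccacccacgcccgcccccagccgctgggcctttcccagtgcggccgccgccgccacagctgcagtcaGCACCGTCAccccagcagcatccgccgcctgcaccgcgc
PIR: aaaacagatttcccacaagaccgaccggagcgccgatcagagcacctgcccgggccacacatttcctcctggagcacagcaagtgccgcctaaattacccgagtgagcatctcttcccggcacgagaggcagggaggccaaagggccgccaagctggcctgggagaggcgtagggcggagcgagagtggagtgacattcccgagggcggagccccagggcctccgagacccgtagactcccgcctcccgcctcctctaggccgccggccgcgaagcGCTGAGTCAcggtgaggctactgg

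RefSeq promoter windows were found for 29 of the 38 genes, 38 windows in all, since some genes have several starts. The core was present in 12 of the 38 windows, 31.6%, and in 14.5% of the 16343 windows of the genes tested. These 12 windows belong to 11 genes, namely KEAP1, GCLM, GPX2, TXNRD1, PGD, ME1, IDH1, CBR1, EPHX1, CYP4F11 and PIR. The AP-1 site TGANTCA, which resembles the core, was found in 7 of the 38 windows, 18.4%, against 5.68% of the windows of the genes tested, and in ME1 and PIR a match to it overlapped a match to the core. In the GPX2 window the core begins 122 bases before the start. In 1 of its 2 windows KEAP1 carries 2 cores, 54 and 31 bases before that start, and in PIR the core begins in exon 1, at base 27 of the transcript. IDH1 and CYP4F11 have 2 windows each and EPHX1 has 3, of which 1 per gene holds the core. Among the genes with a window but no match are AKR1C1, AKR1C2, AKR1C3, ADH7, GSTM3, GCLC, NQO1 and CYP4F3, which were higher in KYSE180, and ABCC2 and UGDH, which also fell in 30D. A match says only that the letters are there, and the windows hold no enhancers farther away. Of the 11 genes with a core in a window, 10 were higher in KYSE180, with a median difference between the lines of 1.16. Of the 17 tested genes with a window but no core, 15 were higher, with a median of 1.39. Among all genes tested, with or without a window, 36.1% were higher in KYSE180, with a median of 0.05.

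Between the lines, KYSE180 carried more transcript of most of the pathway. Of the 36 genes tested, 30 were higher in KYSE180, 0 were lower and 6 did not pass, at an adjusted p of 0.05 in limma with Benjamini-Hochberg adjustment over all genes tested. The lines differed widely in general, and 67.1% of all genes passed, 36.1% higher and 31.0% lower in KYSE180. The median difference was 1.17 log2 units over the 36 genes and 0.05 over all genes. Of the 36 genes, 20 were at least 2-fold higher, as were 8.36% of all genes, and 7 were at least 16-fold higher, as were 0.860% of all genes. Every KYSE180 array lay above every KYSE30 array for 29 of the 36 genes and for 33.8% of all genes. AKR1C3, ADH7 and CYP4F11 passed the filter only through KYSE180, where they are high, and are in these counts. CYP4F11 is not among those at least 16-fold higher. The 36 genes were chosen with earlier results of these data known, so these shares describe them and are no independent test. The arrays measure RNA of whole cultures, so a smaller share of expressing cells and less RNA per cell cannot be told apart.

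**Figure D1:**
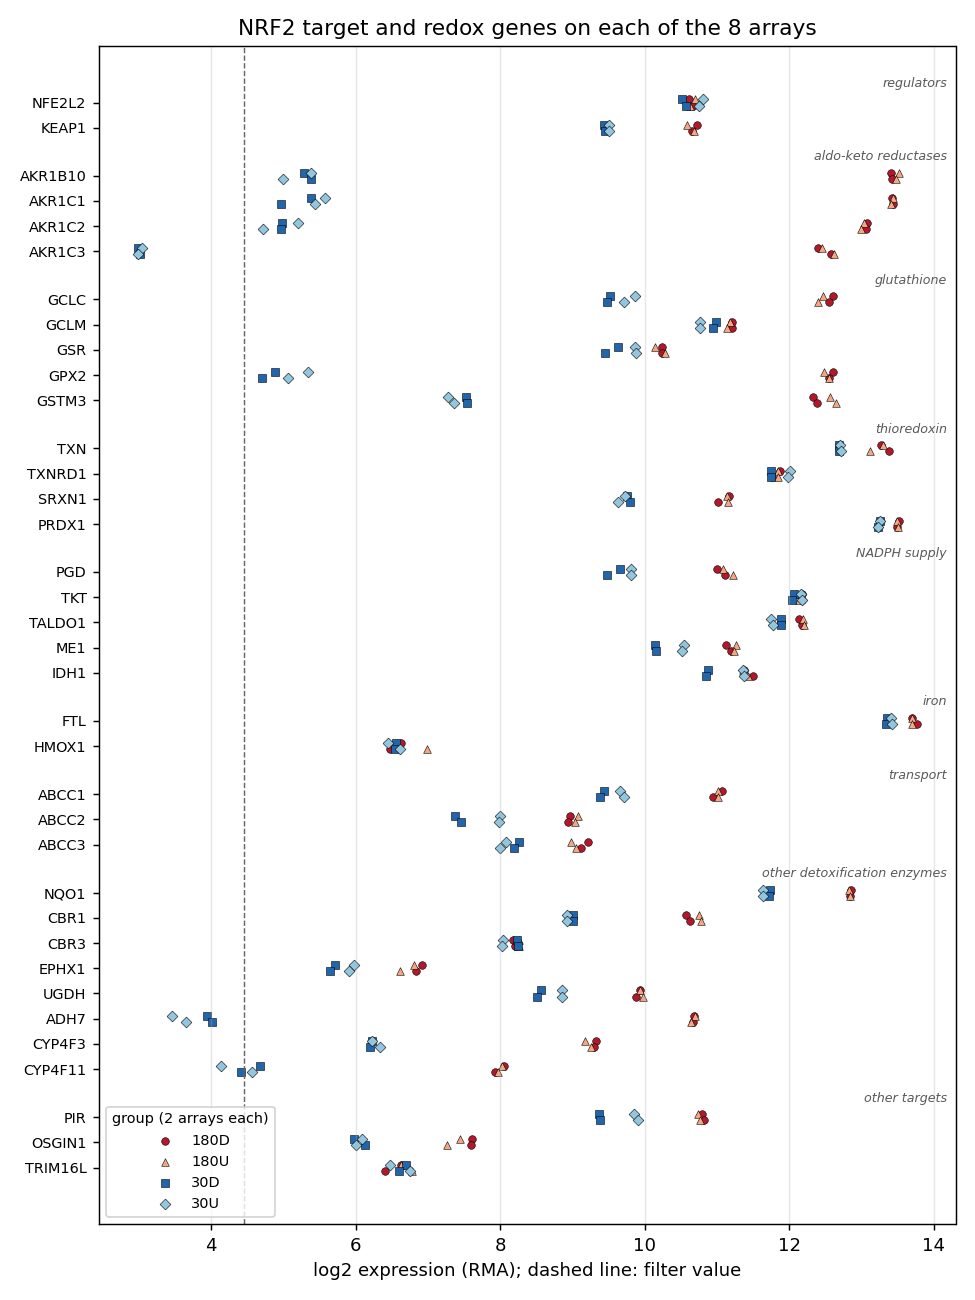
Log2 expression (x axis) of the 36 genes (rows, by role) on each of the 8 arrays, coloured by group, with the filter value of 4.46 as a dashed line. For the 4 aldo-keto reductases, GPX2, GSTM3 and ADH7 the 4 KYSE180 arrays sit far to the right of the 4 KYSE30 arrays, whereas for NFE2L2, TXNRD1, TKT, HMOX1, CBR3 and TRIM16L the lines lie close together.

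Of the regulators, KEAP1 was higher in KYSE180 and NFE2L2 did not pass. NFE2L2, which encodes NRF2, was at 10.61 and 10.67 in 180D and at 10.70 and 10.62 in 180U, against 10.51 and 10.57 in 30D and 10.81 and 10.75 in 30U. The lines overlapped, and the difference was -0.01 ± 0.06 (SE, 95% interval -0.14 to 0.13, adjusted p = 0.91). KEAP1, the inhibitor, was at 10.72 and 10.65 in 180D and at 10.58 and 10.68 in 180U, against 9.43 and 9.45 in 30D and 9.50 and 9.50 in 30U. All 4 KYSE180 arrays were above all 4 KYSE30 arrays, by 1.19 ± 0.05, or 2.28-fold (adjusted p = 1.07e-07).

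The 4 aldo-keto reductases, NADPH-dependent enzymes that reduce aldehydes, ketones and steroids, were all higher in KYSE180. AKR1B10, which reduces retinal and other aldehydes, was at 13.41 and 13.42 in 180D and at 13.51 and 13.48 in 180U, against 5.29 and 5.38 in 30D and 5.38 and 5.0 in 30U. AKR1C1 was at 13.42 and 13.43 in 180D and at 13.43 and 13.41 in 180U, against 5.38 and 4.96 in 30D and 5.58 and 5.44 in 30U. AKR1C2 was at 13.07 and 13.06 in 180D and at 13.03 and 12.99 in 180U, against 4.98 and 4.96 in 30D and 5.20 and 4.72 in 30U. These 3 genes were near the filter value on every KYSE30 array and far above it on every KYSE180 array. AKR1C1 is known to inactivate progesterone, and AKR1C2 dihydrotestosterone. AKR1C3, whose product makes testosterone and prostaglandin F, was at 12.40 and 12.57 in 180D and at 12.45 and 12.62 in 180U, against 2.99 and 3.02 in 30D and 3.04 and 2.99 in 30U, so it was below the filter value on all 4 KYSE30 arrays and passed the filter only through KYSE180.

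The filter value stands in for background where a group mean is under it. Measured from that value, AKR1C3 was at least 266-fold higher in KYSE180 (measured means 12.51 in KYSE180 and 3.01 in KYSE30, adjusted p = 9.37e-12). Here and below, an adjusted p printed with such a bound is that of the measured difference, not of the bound. AKR1B10 was 292-fold higher (8.19 ± 0.09, adjusted p = 8.14e-11), AKR1C1 271-fold (8.08 ± 0.11) and AKR1C2 269-fold (8.07 ± 0.09). The AKR1C transcripts are near-identical copies of each other, and the probe sets used for AKR1C1 and AKR1C2 are of a kind that can bind related sequences, so the values of these 2 genes are uncertain as separate measurements. The other probe sets of AKR1C1 gave differences of 2.18, 2.43, 5.91 and 7.52, and those of AKR1C2 4.88 and 8.34, all higher in KYSE180. With the mean of a gene's probe sets the difference was 5.22 for AKR1C1, 7.10 for AKR1C2, 5.51 for GPX2 and 3.54 for GSTM3.

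**Figure D2:**
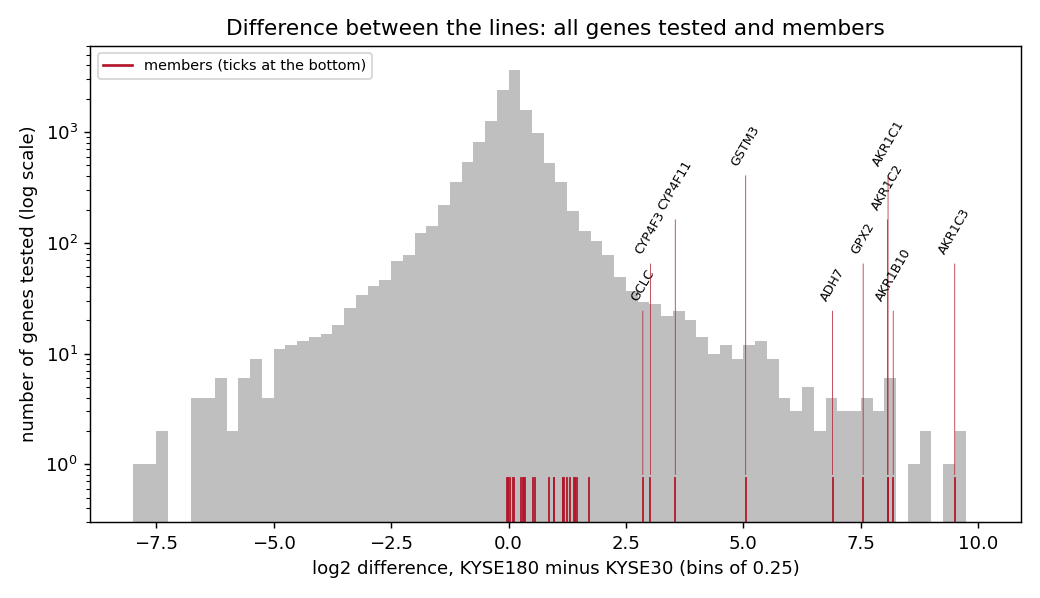
Histogram of the log2 difference between the lines, KYSE180 minus KYSE30, over the 14180 genes tested (grey, count on a log axis), with the 36 genes as red ticks at the bottom and those from 2.86 upward named. The measured differences of the 36 genes run from -0.04 to 9.50, the last that of AKR1C3, whose KYSE30 level is under the filter value, and 7 of them lie above 4.

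All 5 glutathione genes were higher in KYSE180, by amounts that ranged from 0.32 to 7.55. GCLC, the catalytic subunit of glutamate-cysteine ligase, the enzyme that limits glutathione synthesis, was at 12.60 and 12.55 in 180D and at 12.46 and 12.40 in 180U, against 9.52 and 9.48 in 30D and 9.87 and 9.71 in 30U. GCLM, the modifier subunit of the same enzyme, was at 11.21 and 11.20 in 180D and at 11.18 and 11.14 in 180U, against 10.99 and 10.94 in 30D and 10.77 and 10.76 in 30U. Neither gene overlapped between the lines, but GCLC differed by 2.86 ± 0.09, or 7.26-fold (adjusted p = 2.57e-08), and GCLM by 0.32 ± 0.05, or 1.25-fold (adjusted p = 0.00048). For GCLC the other probe sets gave 2.19 and 2.88, and for GCLM both other probe sets gave 0.03, which did not pass.

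GPX2, a glutathione peroxidase of the digestive tract lining, was at 12.61 and 12.55 in 180D and at 12.48 and 12.55 in 180U, against 4.89 and 4.71 in 30D and 5.34 and 5.06 in 30U. GSTM3, a glutathione transferase of the mu class, was at 12.32 and 12.38 in 180D and at 12.56 and 12.64 in 180U, against 7.52 and 7.54 in 30D and 7.27 and 7.36 in 30U. GPX2 was 187-fold higher in KYSE180 (7.55 ± 0.11, adjusted p = 3.72e-10) and GSTM3 33.2-fold (5.05 ± 0.09, adjusted p = 1.51e-09), without overlap. Their second probe sets showed smaller differences in the same direction, 3.47 and 2.02. GSR, which regenerates reduced glutathione, was 1.43-fold higher (0.52 ± 0.09, adjusted p = 0.000655).

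The thioredoxin genes, which reduce oxidised proteins and peroxides in parallel with glutathione, differed less. TXNRD1, which regenerates reduced thioredoxin, was at 11.87 and 11.76 in 180D and at 11.84 and 11.84 in 180U, against 11.75 and 11.74 in 30D and 12.01 and 11.98 in 30U. The lines overlapped, with a difference of -0.04 ± 0.06 (95% interval -0.17 to 0.09, adjusted p = 0.57). In the U sublines alone TXNRD1 passed as lower in KYSE180, at -0.15 (adjusted p = 0.0434). SRXN1, sulfiredoxin, which repairs overoxidised peroxiredoxins, was at 11.17 and 11.01 in 180D and at 11.14 and 11.15 in 180U, against 9.76 and 9.80 in 30D and 9.72 and 9.63 in 30U. It was 2.62-fold higher (1.39 ± 0.06, adjusted p = 1.2e-07). TXN, thioredoxin itself, was 1.48-fold and PRDX1, a peroxiredoxin, 1.20-fold higher in KYSE180 (adjusted p = 3.73e-05 and 0.000444). The second probe set of TXN gave -0.22, and with the mean of a gene's probe sets TXN differed by 0.18 and did not pass (adjusted p = 0.102). GCLM also missed the threshold in that setting, at 0.12 (adjusted p = 0.0561).

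Of the 5 genes that serve NADPH supply, 4 were higher. PGD, a dehydrogenase of the oxidative pentose phosphate pathway, was at 11.00 and 11.11 in 180D and at 11.08 and 11.22 in 180U, against 9.66 and 9.48 in 30D and 9.81 and 9.81 in 30U. Its difference was 1.41 ± 0.06, or 2.66-fold (adjusted p = 2.09e-07), but both other PGD probe sets were near 0, at -0.06 and 0.03, and with the mean of the probe sets the difference was 0.46. ME1, cytosolic malic enzyme, was 1.82-fold higher (0.86 ± 0.07, adjusted p = 4.64e-06), TALDO1, transaldolase, 1.27-fold (adjusted p = 0.000275) and IDH1, cytosolic isocitrate dehydrogenase, 1.23-fold (adjusted p = 0.0317). The IDH1 call was lost when 30D replicate 1, 30D replicate 2, 180D replicate 1 or 180D replicate 2 was left out, with adjusted p up to 0.0907, and the U sublines alone differed by 0.03. TKT, transketolase, did not pass (0.03 ± 0.05), although 1 of its other probe sets gave 0.83 and the mean of its probe sets passed, at 0.31 (adjusted p = 0.00199).

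The iron genes differed little between the lines. FTL, the light chain of the iron store ferritin, was at 13.70 and 13.76 in 180D and at 13.70 and 13.69 in 180U, against 13.35 and 13.34 in 30D and 13.41 and 13.42 in 30U. The lines did not overlap and differed by 0.33 ± 0.04 (adjusted p = 0.000182). The genome holds many near-identical copies of FTL, so its signal may be shared. HMOX1, which breaks down heme and is a widely used readout of oxidative stress, was at 6.63 and 6.47 in 180D and at 6.57 and 6.98 in 180U, against 6.56 and 6.54 in 30D and 6.44 and 6.61 in 30U. The lines overlapped, with a difference of 0.12 ± 0.10 (adjusted p = 0.306).

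The 3 drug and conjugate exporters were all higher in KYSE180. ABCC1, which exports glutathione conjugates, was at 11.07 and 10.95 in 180D and at 11.01 and 11.01 in 180U, against 9.44 and 9.38 in 30D and 9.66 and 9.71 in 30U. It was 2.76-fold higher (1.46 ± 0.07, adjusted p = 2.09e-07), ABCC2 2.47-fold (1.30 ± 0.09, adjusted p = 3.07e-06) and ABCC3 1.94-fold (0.96 ± 0.05, adjusted p = 3.98e-07). The probe sets of ABCC3 passed in opposite directions. Of its 4 other probe sets, 1 was lower in KYSE180 past the threshold, at -0.65, and the other values were 0.13, 0.28 and 0.87.

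NQO1, the quinone reductase most often used as a readout of NRF2, was at 12.85 and 12.84 in 180D and at 12.83 and 12.84 in 180U, against 11.73 and 11.72 in 30D and 11.63 and 11.63 in 30U. It was 2.24-fold higher in KYSE180 (1.16 ± 0.04, adjusted p = 5.66e-08), and its 2 other probe sets gave 1.44 and 1.08. ADH7, an alcohol dehydrogenase of the upper digestive tract that oxidises retinol and ethanol, was at 10.68 and 10.67 in 180D and at 10.69 and 10.64 in 180U, against 3.94 and 4.01 in 30D and 3.46 and 3.65 in 30U. All KYSE30 arrays were under the filter value, so ADH7 passed the filter only through KYSE180. Measured from that value it was at least 74.1-fold higher (measured means 10.67 in KYSE180 and 3.77 in KYSE30, adjusted p = 2.26e-10).

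The fatty acid hydroxylases CYP4F11 and CYP4F3 followed, CYP4F11 at least 11.6-fold higher (adjusted p = 1.63e-08) and CYP4F3 8.09-fold (3.02 ± 0.05, adjusted p = 1.4e-09). CYP4F11 ran from 7.93 to 8.05 in KYSE180, against 4.14 to 4.67 in KYSE30, on either side of the filter value. Its KYSE30 mean of 4.45 was just under that value, so CYP4F11 passed the filter through KYSE180. CYP4F genes are close copies of each other, so these values may share signal. CBR1, carbonyl reductase, was 3.28-fold higher (1.71 ± 0.06, adjusted p = 4.75e-08), UGDH, which makes UDP-glucuronate for conjugation, 2.36-fold, and EPHX1, microsomal epoxide hydrolase, 1.96-fold. CBR3, a close relative of CBR1, did not pass, at 0.09 ± 0.06 (adjusted p = 0.255). It passed as higher in KYSE180 in the U sublines alone (0.23, adjusted p = 0.00378) and in the fit of the group means (0.09, adjusted p = 0.0494).

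Among the other targets, OSGIN1, an oxidative stress-induced growth inhibitor, was at 7.61 and 7.59 in 180D and at 7.44 and 7.26 in 180U, against 5.98 and 6.13 in 30D and 6.08 and 6.01 in 30U. It was 2.68-fold higher in KYSE180 (1.42 ± 0.07, adjusted p = 3.41e-07), and PIR, the iron-binding protein pirin, was 2.23-fold higher (1.16 ± 0.10, adjusted p = 1.4e-05). TRIM16L did not pass with the probe set used (-0.02 ± 0.09), its second probe set was lower in KYSE180, at -0.58, and the mean of its probe sets passed as lower, at -0.30 (adjusted p = 0.00351).

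**Figure D3:**
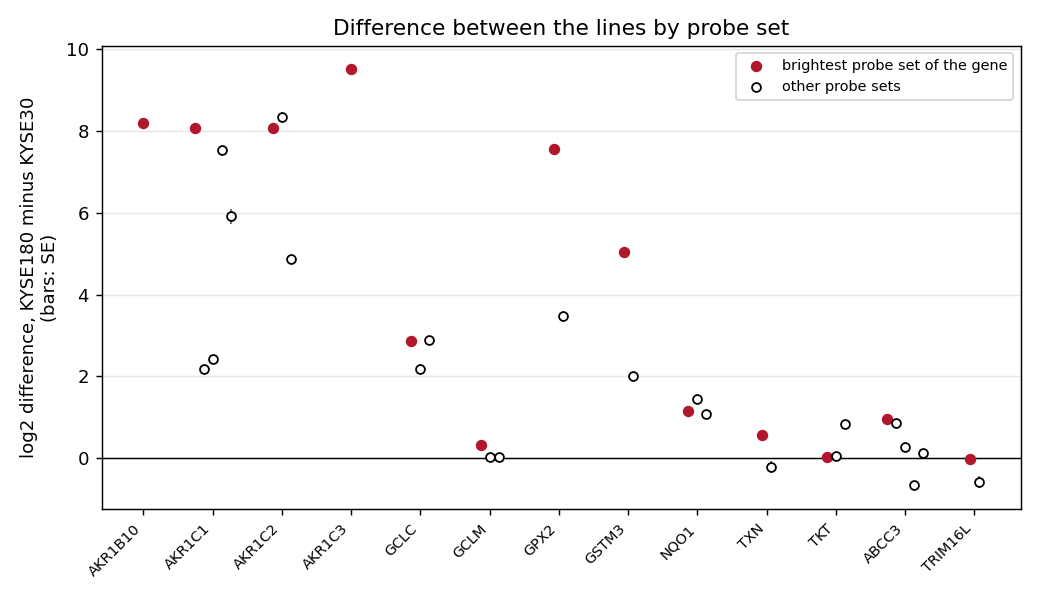
Log2 difference between the lines (y axis, bars are the SE) for the probe set used (filled) and every other tested probe set (open) of 13 of the genes. The probe sets of GCLC and NQO1 lie close together, those of AKR1C1, GPX2 and GSTM3 spread over several log2 units on the same side of 0, and those of TXN and ABCC3 fall on both sides of 0.

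Over all genes with several probe sets there were 31 other probe sets, compared here in a limma fit by probe set rather than by gene. In the comparison of the lines 27 of the 31 had the sign of the probe set used, 19 passed in the same direction, 1 passed in the opposite direction and 7 did not pass where the probe set used did. For the change between D and U, 18 of the 31 had the sign of the probe set used in KYSE180. In KYSE30 19 of the 31 had it, 4 passed in the same direction and 4 did not pass where the probe set used did, and for the difference of the changes these numbers were 19, 2 and 3. In that fit the probe sets used for NFE2L2, GCLM and GSTM3 themselves missed the threshold in KYSE30 (adjusted p = 0.0567, 0.0585 and 0.0722). Those of ME1, CBR3, EPHX1 and ADH7 missed it for the difference of the changes (adjusted p = 0.0772, 0.0642, 0.063 and 0.0647). Of the 30 gene calls between the lines, 29 held whichever of the 8 arrays was left out, IDH1 being the exception, and 27 held in every setting tried.

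Within KYSE30, where the more motile 30D sublines are set against 30U, 15 of the 36 genes passed, 11 lower and 4 higher in 30D. Among all genes 16.5% passed, 8.12% lower and 8.42% higher. Changes were small. None reached 2-fold, the median over the 36 genes was -0.04 against 0.01 over all genes, and the range was -0.57 to 0.42. The 4 genes whose fall in 30D held in each fit without 1 array and in every other setting were ABCC2, IDH1, PIR and ME1.

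ABCC2, an exporter of conjugated organic anions, was at 7.38 and 7.45 in 30D, against 7.99 and 7.98 in 30U. It fell by 0.57 ± 0.05 on the log2 scale (adjusted p = 0.000939). IDH1 was at 10.87 and 10.84 in 30D, against 11.36 and 11.37 in 30U, a fall by 0.51 ± 0.06 (adjusted p = 0.00242) that its 2 other probe sets shared, at -0.57 and -0.35. PIR was at 9.37 and 9.38 in 30D, against 9.85 and 9.90 in 30U, and fell by 0.50 ± 0.05 (adjusted p = 0.00134). ME1 was at 10.14 and 10.16 in 30D, against 10.54 and 10.51 in 30U, a fall by 0.38 ± 0.05 (adjusted p = 0.00449) shared by its second probe set, at -0.41. For all 4 the groups were separated by several times the gap between the 2 arrays of a group. The fits that picked these genes rest on that same separation, so it adds no further support. Of their promoter windows, those of IDH1, ME1 and PIR printed above hold a match to the antioxidant core and that of ABCC2 holds none.

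UGDH was at 8.56 and 8.51 in 30D, against 8.85 and 8.85 in 30U, and fell by 0.31 ± 0.05 (adjusted p = 0.00777). GSR was at 9.63 and 9.45 in 30D, against 9.87 and 9.88 in 30U, and fell by 0.34 ± 0.08 (adjusted p = 0.0253), with its second probe set at -0.41. GPX2, which was close to the filter value in KYSE30, fell by 0.40 ± 0.10 (adjusted p = 0.0356), but its second probe set gave 0.07. The values of the 2 groups did not overlap for any of these 3 genes. With 2 arrays a group such separation also occurs without a change, and its share over all genes was not counted.

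NFE2L2 fell by 0.24 ± 0.06 in 30D (adjusted p = 0.0351), TXNRD1 by 0.25 ± 0.06 (adjusted p = 0.0227), GCLC by 0.29 ± 0.07 (adjusted p = 0.0272) and ABCC1 by 0.27 ± 0.06 (adjusted p = 0.0216). Blocking on the parental population gave an adjusted p of 0.0699 for NFE2L2, 0.0571 for TXNRD1, 0.0518 for GCLC and 0.0574 for ABCC1, so none of these 4 calls was kept. The second probe set of NFE2L2 gave 0.15 and that of ABCC1 0.00, and for GCLC the other probe sets gave 0.14 and -0.21. KEAP1 did not pass, at -0.05 ± 0.06 (adjusted p = 0.584).

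The 4 genes called higher in 30D were GCLM (0.20 ± 0.05, adjusted p = 0.0328), GSTM3 (0.22 ± 0.06, adjusted p = 0.0462), CBR3 (0.21 ± 0.05, adjusted p = 0.0239) and ADH7 (0.42 ± 0.07, adjusted p = 0.0104). CBR3, a carbonyl reductase, was at 8.23 and 8.25 in 30D, against 8.04 and 8.02 in 30U. The other probe sets of GCLM gave 0.05 and 0.08 and that of GSTM3 0.05, none past the threshold. With the mean of a gene's probe sets GCLM differed by 0.11 (adjusted p = 0.256) and GSTM3 by 0.14 (adjusted p = 0.299), and neither passed. Both ADH7 group means were under the filter value, so it is among the 15 by the fit but is not read as a rise. With the block the adjusted p was 0.0816 for GCLM, 0.0946 for GSTM3 and 0.0709 for CBR3, and these 3 calls were lost. Both subunits of glutamate-cysteine ligase therefore passed in opposite directions, GCLC lower and GCLM higher in 30D, and neither held with the block.

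None of the 4 aldo-keto reductases passed in KYSE30, where their differences ran from -0.34 for AKR1C1 (adjusted p = 0.118) to 0.14 for AKR1B10 (adjusted p = 0.455). AKR1C3 was under the filter value on all KYSE30 arrays, so no change of it could be seen there. Without 30D replicate 1 AKR1C1 passed as lower, at -0.55 (adjusted p = 0.0208), and its change then differed between the lines by 0.56 (adjusted p = 0.0419). NQO1 was 0.10 ± 0.05 higher (adjusted p = 0.192), and HMOX1 differed by 0.02 ± 0.13. Of the exporters, ABCC3 was at 8.26 and 8.19 in 30D, against 8.08 and 7.99 in 30U, and did not pass (0.19 ± 0.06, adjusted p = 0.0949). TXN, SRXN1, PRDX1, PGD, TKT, TALDO1, FTL, CBR1, EPHX1, CYP4F3, CYP4F11, OSGIN1 and TRIM16L did not pass either. Their differences ran from -0.26 to 0.19. EPHX1 passed as lower in some other settings, as with a filter at the 60th percentile (-0.26, adjusted p = 0.0355). TKT passed as lower with the mean of its probe sets (-0.19, adjusted p = 0.0455), and another TKT probe set, tested by probe set, gave -0.30 (adjusted p = 0.0474). When the spread was allowed to follow the intensity, AKR1C1, PGD and TKT passed as lower and TALDO1, ABCC3 and NQO1 as higher.

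The count of 15 in KYSE30 rests on each of its 4 arrays and was 8 with the parental block. It was 8 without 30D replicate 1, 4 without 30D replicate 2, 4 without 30U replicate 1 and 7 without 30U replicate 2. NFE2L2, GCLM, TXNRD1, ABCC1 and CBR3 missed the threshold without any 1 of these arrays, with adjusted p up to 0.189, 0.189, 0.129, 0.133 and 0.145. GCLC did so without 30U replicate 1 or either 30D array (up to 0.155), GSR and UGDH without either 30U array or 30D replicate 2 (up to 0.142 and 0.065), and ADH7 without 30U replicate 1 or 30D replicate 2 (up to 0.072). GSTM3 missed it without any KYSE30 array or either 180D array (up to 0.243), and GPX2 without 30U replicate 1, either 30D array or any KYSE180 array (up to 0.185). Among the squamous markers, the transcription factor SOX2 averaged 7.86 in 30D and 9.80 in 30U. Its part in these differences was not tested.

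**Figure D4:**
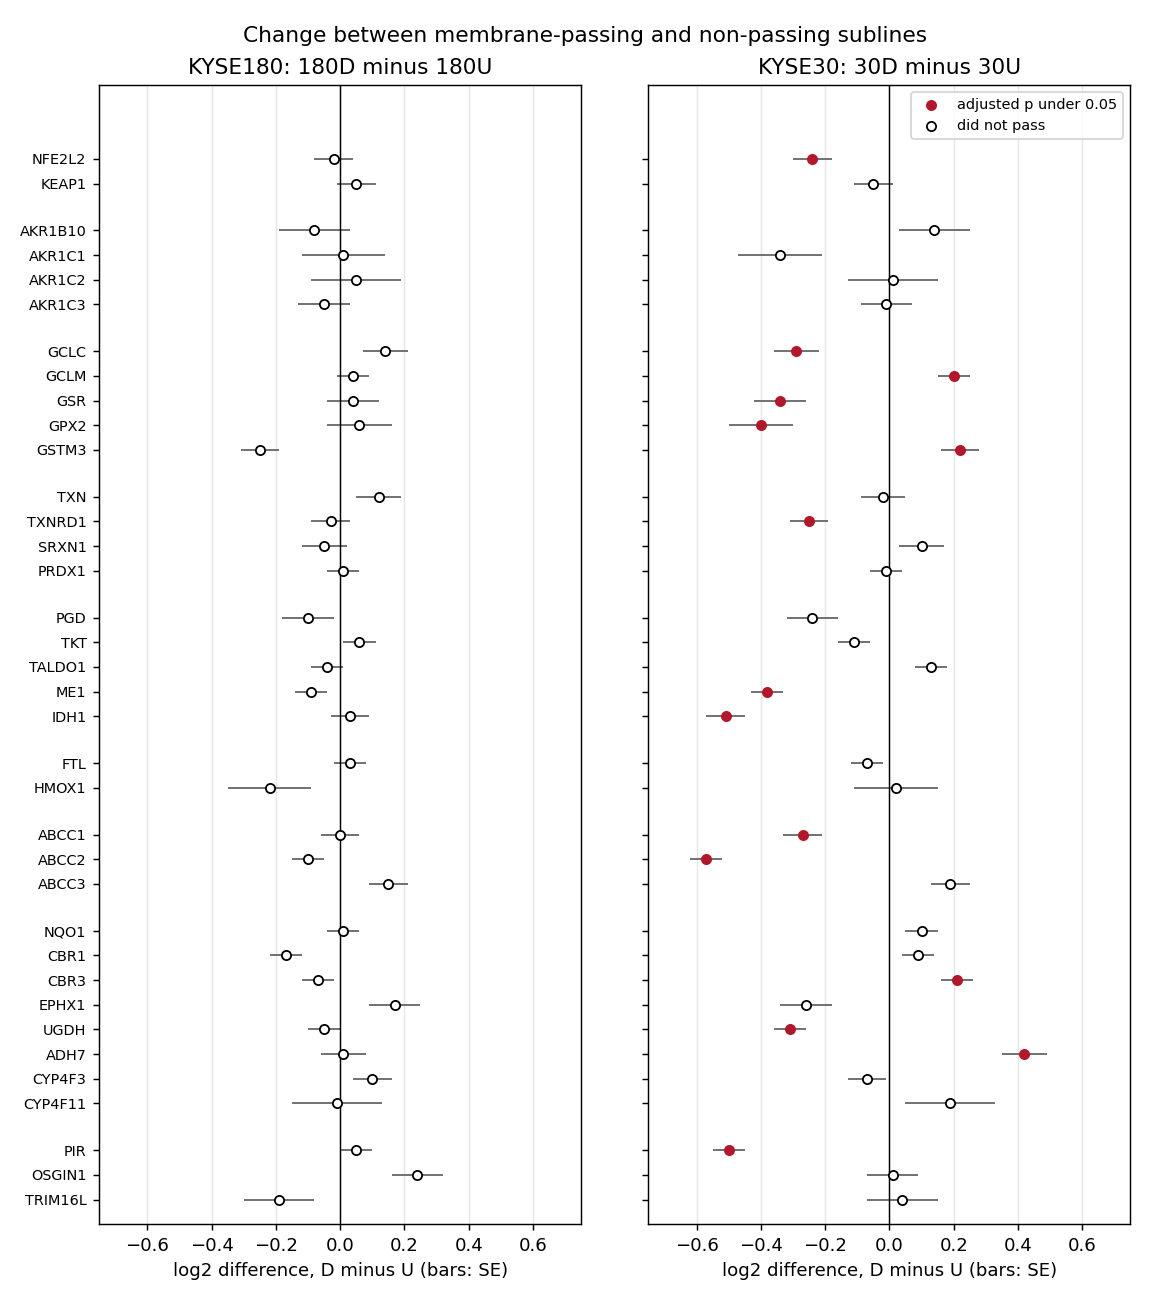
Log2 difference D minus U (x axis, bars are the SE) of the 36 genes in KYSE180 (left) and KYSE30 (right), filled where the adjusted p was under 0.05. In KYSE180 0 genes are filled and the differences run from -0.25 to 0.24, and in KYSE30 15 are filled, 11 of them left of 0.

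Within KYSE180, 180D against 180U, 0 of the 36 genes passed in limma, and 3.75% of all genes did. The differences ran from -0.25 to 0.24, with a median of 0.01 against 0.02 over all genes, and the 95% intervals of the single genes lay between -0.54 and 0.43. At an unadjusted p under 0.05 there were 3 of the 36 genes, and 19.2% of all genes. These were GSTM3 (-0.25 ± 0.06, adjusted p = 0.0746), CBR1 (-0.17 ± 0.05, adjusted p = 0.128) and OSGIN1 (0.24 ± 0.08, adjusted p = 0.153). For all 3 the arrays of 180D and 180U did not overlap, a separation that 2 arrays a group can also show without a change. CBR1 was at 10.57 and 10.63 in 180D, against 10.75 and 10.78 in 180U. A count of 1 was obtained with a stricter filter on dim probe sets and of 2 when the spread was allowed to follow the intensity. Tested by probe set rather than by gene, 1 probe set of TRIM16L other than the one used was higher in 180D, by 0.52 ± 0.09 (adjusted p = 0.0334).

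The aldo-keto reductases, bright on all KYSE180 arrays, differed between 180D and 180U by -0.08 ± 0.11 for AKR1B10, 0.01 ± 0.13 for AKR1C1, 0.05 ± 0.14 for AKR1C2 and -0.05 ± 0.08 for AKR1C3. NFE2L2 (-0.02 ± 0.06), KEAP1 (0.05 ± 0.06) and NQO1 (0.01 ± 0.05) did not pass, with 95% intervals of -0.16 to 0.12, -0.08 to 0.19 and -0.10 to 0.12. GCLC (0.14 ± 0.07, adjusted p = 0.296) and GCLM (0.04 ± 0.05, adjusted p = 0.729) did not pass either. HMOX1 was higher on 180U replicate 2, at 6.98, than on the other 7 arrays, which ran from 6.44 to 6.63.

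The change between D and U differed between the lines for 9 of the 36 genes, 6 of them with a more positive change in KYSE180 and 3 with a more negative one. Among all genes 12.2% passed this test, 6.94% more positive and 5.21% more negative. PIR changed by 0.05 in KYSE180 and by -0.50 in KYSE30, a difference of 0.55 ± 0.07 (adjusted p = 0.0045). For IDH1 the changes were 0.03 and -0.51 (difference 0.54 ± 0.08, adjusted p = 0.00888), and for ABCC2 -0.10 and -0.57 (0.47 ± 0.07, adjusted p = 0.00908). These 3 differences held without each array and in every other setting.

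GSTM3 changed by -0.25 in KYSE180 and by 0.22 in KYSE30, a difference of -0.47 ± 0.08 (adjusted p = 0.015, and 0.0486 with the parental block), and missed the threshold without 30U replicate 1 or either 30D array (up to 0.0639). GCLC (0.43 ± 0.09), EPHX1 (0.43 ± 0.11), ME1 (0.28 ± 0.07), CBR3 (-0.28 ± 0.07) and ADH7 (-0.41 ± 0.10) passed, with adjusted p of 0.0287, 0.045, 0.0492, 0.038 and 0.0459. With the block these 5 were lost, at adjusted p of 0.0577, 0.0949, 0.102, 0.0993 and 0.0577, and the count of 9 was 5, made up of PIR, IDH1, ABCC2, GSTM3 and GPX2 (0.46, adjusted p = 0.0404 with the block and 0.083 without). ADH7 is among the 9 by the fit, but both its KYSE30 group means were under the filter value and its difference is not read as a change. Leaving out 1 array lost GCLC for 6 of the 8 arrays, EPHX1 and ADH7 for 7, and ME1 and CBR3 for all 8, with adjusted p up to 0.165. EPHX1 was at 6.92 and 6.83 in 180D, against 6.80 and 6.61 in 180U, and at 5.72 and 5.65 in 30D, against 5.98 and 5.91 in 30U. With no block, the count of 9 was 4 and 3 without 30D replicates 1 and 2, 3 and 7 without 30U replicates 1 and 2, 4 and 6 without 180D replicates 1 and 2, and 5 and 4 without 180U replicates 1 and 2. In the main setting, with the probe set used for each gene, the change did not differ past the threshold for any regulator, aldo-keto reductase, thioredoxin gene or iron gene. When the spread was allowed to follow the intensity, NFE2L2 (0.22, adjusted p = 0.0334) and TXNRD1 (0.22, adjusted p = 0.0123) passed. Tested by probe set, another probe set of AKR1C2 passed (0.42 ± 0.10, adjusted p = 0.0422), as did 1 other probe set of TKT (0.48 ± 0.11, adjusted p = 0.037) and 1 of TRIM16L (0.77 ± 0.12, adjusted p = 0.0141).

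The pathway was also followed in a list of 95 other genes, 87 of which were tested. This list too was chosen with earlier results of these data known. Between the lines 53 were higher and 23 lower in KYSE180, 87.4% in either direction against 67.1% of all genes, with a median of 0.31 against 0.05 over all genes. The 4 with the smallest adjusted p were PTGR1, which reduces reactive alkenals (5.79 ± 0.06, 55.5-fold, adjusted p = 7.73e-11), ALDH3A1, an aldehyde dehydrogenase (5.68 ± 0.07, 51.2-fold, adjusted p = 1.88e-10), NNT, the mitochondrial transhydrogenase that makes NADPH (at least 24.3-fold, adjusted p = 2.37e-09), and MSRA, methionine sulfoxide reductase (-2.33 ± 0.05, adjusted p = 2.85e-09). PTGR1 was at 12.53 and 12.49 in 180D and at 12.60 and 12.54 in 180U, against 6.53 and 6.70 in 30D and 6.85 and 6.90 in 30U. NNT was under the filter value on every KYSE30 array, at 3.33 to 3.83, so it passed the filter only through KYSE180.

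In KYSE30, 16 of the 87 were lower and 8 higher in 30D, 27.6% in either direction against 16.5% of all genes. SLC7A11, the cystine transporter that feeds glutathione synthesis, was at 7.44 and 7.30 in 30D, against 8.32 and 8.14 in 30U, and fell by 0.86 ± 0.08 (adjusted p = 0.00106). SESN1, a sestrin, fell by 0.72 ± 0.07 (adjusted p = 0.00149) and SLC11A2, an iron transporter, by 0.41 ± 0.06 (adjusted p = 0.00503), whereas NFE2L3, a relative of NFE2L2, was higher by 0.42 ± 0.06 (adjusted p = 0.00458). In KYSE180, 2 of the 87 passed, both higher in 180D, 2.3% against 3.75% of all genes. These were MGST2, a microsomal glutathione transferase (0.51 ± 0.07, adjusted p = 0.00984), and EPHX2, soluble epoxide hydrolase (0.53 ± 0.09, adjusted p = 0.0302). The change between D and U differed between the lines for 14 of the 87, 16.1% against 12.2% of all genes, among them SESN1 (0.78 ± 0.11), SLC11A2 (0.58 ± 0.08), SLC7A11 (0.77 ± 0.11) and MAFF, a small MAF protein (0.65 ± 0.11), with adjusted p of 0.00563, 0.0066, 0.00765 and 0.0129.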

How the data were processed

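The values are log2 expression values that the authors deposited after RMA, per the submitters' processing notes. RMA makes the distributions of arrays alike and compresses low signals, so differences of dim genes are understated. The RMA version: not given in the sources used here. Array medians were 5.02 to 5.04. Gene names came from the platform's annotation table, in which 41091 of 54675 probe sets carry 1 symbol, 1801 several and 11721 none, beside 62 controls. RefSeq (GRCh38.p14) gave current symbols for 41037 of the first kind. The filter removed probe sets whose mean over the 8 arrays was under the 40th percentile (log2 4.46). A gene is its brightest probe set, and 14180 of 19775 genes were tested. The 36 genes had 70 probe sets, 67 of them past the filter, and 3 further probe sets carry several symbols and were not used.

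Tests used limma 3.58.1 (lmFit, eBayes, two-sided) in R 4.3.3, Benjamini-Hochberg over all genes tested, threshold 0.05. A fit of the 4 group means gave D minus U in each line and the difference of these changes, and an additive fit of line and fraction gave KYSE180 minus KYSE30. The scripts were tested on simulated data. Precision is limited by the 8 arrays. In the fit of the group means, the spread behind each p-value is that between populations selected apart from each other. In the additive fit the spread also holds any difference of the D minus U change between the lines. The labels pair each D with a U array by parental population, which in KYSE180 crosses the replicate numbers of the titles. The deviations of paired arrays from their group means correlated with -0.02 in KYSE30 and 0.02 in KYSE180 across genes.

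The members, the list of 95 other genes and the rules were chosen with earlier results of these data known. The rule gives values on every array for 10 core genes (NFE2L2, KEAP1, the AKR genes, NQO1, GCLM, GCLC, TXNRD1), for each gene past the threshold with a change of at least 0.5, and for the gene with the smallest adjusted p in each role. Of the other genes it names up to 4 per comparison. Other genes are given where their arrays or probe sets bear on a comparison. Alternatives were other filters, centring, the mean of a gene's probe sets, other variance priors, blocks, fewer arrays and left-out arrays. The test by probe set was added after the data were seen.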

Additional observations from a re-analysis of the deposited data

Results flagged for a closer look

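For 9 genes the change between D and U differed between the lines by the interaction test in limma (adjusted p under 0.05 over all genes tested). The changes in KYSE180 and then in KYSE30 are given with each difference, on the log2 scale.

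PIR changed by 0.05 and -0.50, a difference of 0.55. IDH1 changed by 0.03 and -0.51, a difference of 0.54. ABCC2 changed by -0.10 and -0.57, a difference of 0.47. In these 3 genes the fall was in KYSE30.

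ME1 changed by -0.09 and -0.38, a difference of 0.28, GCLC by 0.14 and -0.29, a difference of 0.43, and EPHX1 by 0.17 and -0.26, a difference of 0.43. EPHX1 itself passed in neither line.

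GSTM3 changed by -0.25 and 0.22, a difference of -0.47, and CBR3 by -0.07 and 0.21, a difference of -0.28. ADH7 changed by 0.01 and 0.42, a difference of -0.41, with both KYSE30 groups under the filter value.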

How the results depend on the processing

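The count between the lines stayed at 29 to 31 of 36 in every alternative. In KYSE30 the count of 15 was 9 with no filter, 8 with the parental population as a replicate block and 8 with the title number as the block, 10 with the mean of a gene's probe sets, 21 with an intensity trend in the spread (7 higher and 14 lower), and 4 to 15 when 1 array was left out. In KYSE180 the count of 0 was 1 with a filter at the 60th percentile and 2 with an intensity trend in the spread, and 0 when any 1 array was left out. The count of 9 differences between the changes was 4 with no filter, 14 with the 60th percentile, 19 with the trend, 5 with either block, and 3 to 7 when 1 array was left out. The parental replicate block lost 7 of the 15 KYSE30 calls and 5 of the 9 differences, and none of the 30 calls between the lines, and added 1 difference, GPX2. No direction reversed. The cause of these changes was not tested. Fits without an array have fewer samples. A block adds terms to the fit of the group means on the same arrays, which leaves less information on the spread. With 2 arrays a group, small changes could not be resolved, and levels under the filter value have no order.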

Other observations

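The nearest tested neighbours of the 7 genes that were at least 16-fold higher in KYSE180 were looked up after those values were seen. Beside AKR1B10, SLC35B4 differed between the lines by 0.18 ± 0.05 and BPGM by 0.92 ± 0.05 log2 units, KYSE180 minus KYSE30. Beside the AKR1C genes, AKR1E2 differed by 0.98 ± 0.07 and UCN3 by 0.07 ± 0.06. Beside GPX2, CHURC1 differed by 0.21 ± 0.04 and RAB15 by 0.33 ± 0.09. Beside GSTM3, GSTM5 differed by 0.09 ± 0.06 and CSF1 by 0.02 ± 0.06, and beside ADH7, ADH4 differed by -0.12 ± 0.05 and C4orf17 by 0.30 ± 0.07. All these values of nearest neighbours were under 1 log2 unit, where the 7 genes differed by at least 5.05. Other GSTM genes, which were not the nearest neighbours of GSTM3, were higher in KYSE180. GSTM1 differed by 1.65 ± 0.09, GSTM2 by 1.56 ± 0.09 and GSTM4 by at least 2.68, measured from the filter value.

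A probe set annotated to both AKR1C2 and AKR1C1, used in no comparison, ran from 9.93 to 10.22 on the KYSE180 arrays and from 2.23 to 2.48 on the KYSE30 arrays.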
